A study of Mus musculus with 8 samples.

Results

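Enzymes that clear foreign and reactive compounds were followed in mouse cardiac fibroblasts grown in osteogenic differentiation medium, a type of medium used to drive stromal cells towards bone formation. The genes are those of the deposited table whose symbols belong to the glutathione transferases of classes alpha, kappa, mu, omega, pi and theta (Gst), the aldehyde dehydrogenases (Aldh), the cytochrome P450s (Cyp, without the cholesterol synthesis gene Cyp51), the sulfotransferases (Sult) and the UDP-glucuronosyltransferases (Ugt). Among its 24015 rows, 182 matched these symbols, and the 65 with at least 10 normalized counts in 2 or more of the 8 libraries are the members described here. They were thus selected on the measured levels themselves, and the families were picked with earlier results of these libraries known. They comprise 17 of 20 Gst rows, 19 of 20 Aldh rows, 23 of 103 Cyp rows, 3 of 18 Sult rows and 3 of 21 Ugt rows. No read was counted in any library for 74 of the 182 rows, 45 of them Cyp, 15 Ugt and 13 Sult. Closest inside the limit lay Cyp46a1, Cyp2d9 and Cyp4b1, whose second highest values were 13.7, 13.9 and 16.4, and closest outside lay Cyp2d13 and Sult6b1, with second highest values of 9.11 and 8.20.

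Each library came from wild-type C57BL/6J cardiac fibroblasts, with an age of 8 weeks given for the mice. Day 0 stands for cells sampled ahead of the medium, and days 7, 14 and 21 for the time spent in it. Each of these 4 groups has 2 libraries. Values are normalized counts, that is reads per gene divided by a size factor for the library, from 13399313 to 21883498 reads per library. Differences between times were tested with limma on log2(normalized count + 1) over all 13527 genes that met the same limit, with Benjamini-Hochberg adjustment, and a gene is called higher or lower at an adjusted p below 0.05. Errors after ± are standard errors of that fit. No library analysed here came from cells kept for the same number of days without the medium, so the medium and the days in culture cannot be told apart. Whether libraries of 1 group stem from separate cultures or mice is not given, so p-values here reflect the spread between these libraries alone, which may be technical. What the medium contained is not given either. In such bulk samples fewer cells of a type and less RNA per cell cannot be told apart.

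Detoxification is commonly described in phases. P450s, aldehyde dehydrogenases and related enzymes oxidise a compound, glutathione transferases, sulfotransferases and UDP-glucuronosyltransferases then attach glutathione, sulfate or glucuronic acid, and transporters export the conjugate. Liver holds most of these enzymes, but connective tissue cells express a set of their own. Several also act on the body's own molecules: the Aldh1a enzymes make retinoic acid and the Cyp26 enzymes break it down, while Cyp27a1 and Cyp7b1 act on sterols. Nrf2 (Nfe2l2) is the textbook activator of many glutathione transferase genes through the antioxidant response element, and the aryl hydrocarbon receptor (Ahr) that of Cyp1 genes.

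Promoter sequences are shown for Gsta3 and Sult1a1, the members of their families with the largest differences after 7 days, and for Gstm5, whose promoter holds letters of both the Nrf2 and the Ahr motif. Each is the 250 bases before the start of the RefSeq transcript on GRCm38.p6, written 5′ to 3′ on the strand of the gene, and capitals mark TGACNNNGC, the core of the antioxidant response element, or GCGTG, the core of the Ahr element, on either strand. The first is Gsta3 at chr1:21240335-21240584 on the plus strand, with 1 TGACNNNGC. The second is Gstm5 at chr3:107895604-107895853 on the plus strand, with 1 TGACNNNGC and 2 GCGTG. The third is Sult1a1 at chr7:126676419-126676668 on the minus strand, with neither.
Gsta3: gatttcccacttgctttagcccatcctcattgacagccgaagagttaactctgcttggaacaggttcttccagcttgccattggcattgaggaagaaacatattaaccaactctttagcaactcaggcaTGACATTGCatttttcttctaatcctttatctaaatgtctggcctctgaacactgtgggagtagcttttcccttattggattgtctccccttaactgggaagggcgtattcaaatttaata
Gstm5: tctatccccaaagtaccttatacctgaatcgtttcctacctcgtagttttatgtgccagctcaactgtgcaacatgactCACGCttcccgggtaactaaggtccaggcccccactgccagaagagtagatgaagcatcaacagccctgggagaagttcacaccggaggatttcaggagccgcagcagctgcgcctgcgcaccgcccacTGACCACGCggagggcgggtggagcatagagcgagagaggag
Sult1a1: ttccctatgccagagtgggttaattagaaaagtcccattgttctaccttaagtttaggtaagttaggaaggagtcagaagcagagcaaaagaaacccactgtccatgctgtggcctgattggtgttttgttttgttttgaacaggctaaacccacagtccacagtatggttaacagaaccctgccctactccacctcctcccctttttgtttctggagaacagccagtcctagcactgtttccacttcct

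Of the 65 members 50 had a promoter in the RefSeq table, 62 promoters in all. TGACNNNGC lay in 6 of the 62 (9.68%), against 10.2% of all 32851 promoters of the same length. GCGTG lay in 27.4% of the members' promoters and in 28.2% of all promoters. A core of the glucocorticoid response element, ACANNNTGT, lay in 3.23% and 5.84%. The first pair of motifs was thus about as common before the members as before any gene, and the last lay in 2 of the members' promoters. A match describes a sequence, not a bound site.

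Members higher than before the medium outnumbered those lower after 1 week. At day 7 against day 0, 42 of the 65 members were called higher, where 27.5% of all tested genes were, and 8 were called lower, where 27.9% of all tested genes were. The members' median log2 difference was 1.07, against -0.01 for all tested genes. That count includes 9 members, 7 Cyp and 2 Sult, that lay below 10 in both day 0 libraries and could be members only through later times. All 9 were called higher, and of the other 56 members 33 were higher (58.9%) and 8 lower. The median log2 difference of these 56 was 0.45. Without the second day 0 library 5 members were called lower.

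At day 14 against day 7, 24 members were called higher (25.0% of all tested genes were) and 8 lower (27.0% of all tested genes). At day 21 against day 14, 8 were higher (20.2% of all tested genes) and 12 lower (14.3% of all tested genes). Over the whole course, at day 21 against day 0, 41 members were higher (29.8% of all tested genes) and 7 lower (29.5% of all tested genes). Of these 41, 8 lay below 10 in both day 0 libraries, and of the other 56 members 33 were higher (58.9%). In percent of the 65, 36.9 were higher in the second week and 12.3 in the third, nearer to all genes than the 64.6 of the first. The count of members higher at day 14 came to 15 without the first day 7 library, and that of members lower at day 21 against day 14 to 7 without the second day 14 library and 6 without the second day 21 library. In all, 61 of the 65 members were called in at least 1 of the 4 comparisons, and Aldh16a1, Cyp20a1, Cyp4f37 and Gsto2 in none.

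Count models on the recovered reads gave similar numbers of members. At day 7 against day 0 edgeR's quasi-likelihood test called 41 higher (28.9% of all tested genes) and 8 lower (27.1%), and DESeq2 35 higher (24.0%) and 6 lower (25.1%). At day 14 against day 7 edgeR called 25 higher (26.1%) and 8 lower (26.9%), and DESeq2 19 higher (22.1%) and 8 lower (23.4%). At day 21 against day 14 edgeR called 8 higher (19.1%) and 15 lower (16.5%), and DESeq2 9 higher (18.3%) and 13 lower (12.6%). At day 21 against day 0 edgeR called 41 higher (30.3%) and 7 lower (29.2%), and DESeq2 37 higher (26.6%) and 7 lower (26.5%).

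**Figure D1:**
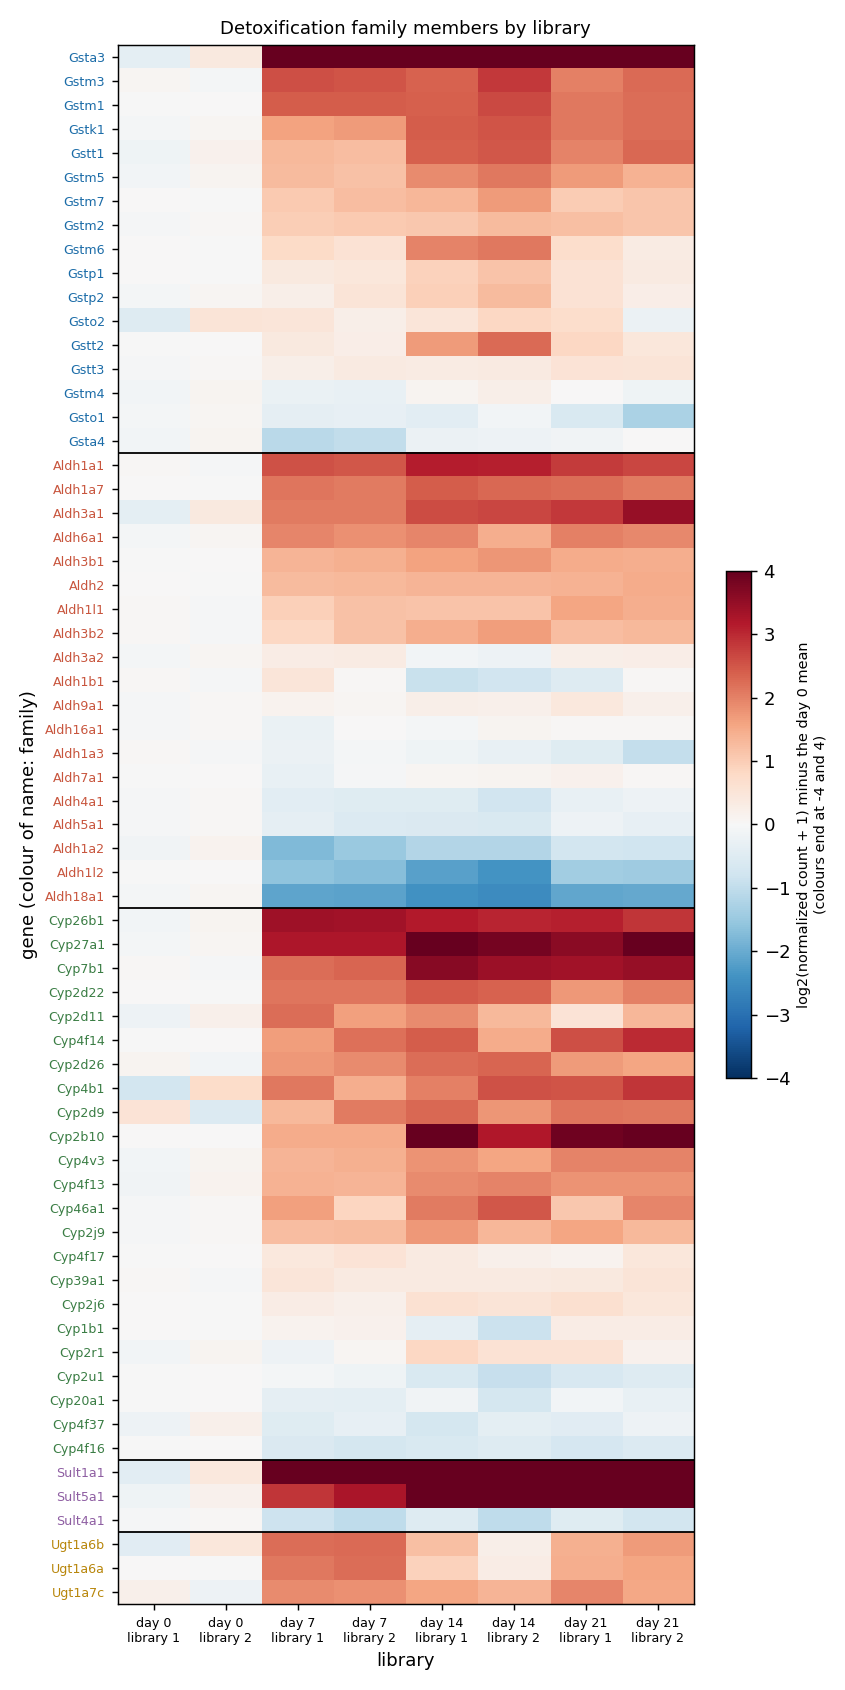
Each row is 1 of the 65 members and each column 1 library. Colour gives log2(normalized count + 1) minus the gene's mean over the 2 day 0 libraries, red for higher and blue for lower, with colours ending at -4 and 4, and names are coloured by family. Red fills most rows of the Gst and Cyp families and the 3 Ugt rows from day 7 on, while Aldh18a1, Aldh1l2 and Aldh1a2 are blue at every time after day 0.

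The 65 members together held 0.329 and 0.333% of all normalized counts before the medium, then 0.787 and 0.768% (day 7), 1.02 and 1.03% (day 14), and 0.848 and 0.801% (day 21). A few genes made up most of this. Per kilobase of the longest annotated transcript, Aldh1a1 had the highest level of all members at every time, with means of 4497 normalized counts per kilobase at day 0, 25761 at day 7, 39323 at day 14 and 29978 at day 21. At day 0 Gsto1 (3193 and 3577 per kilobase in the 2 libraries) and Gstm2 (3224 and 3383) followed and overlapped each other, and at day 7 it was Gstm1 (8111 and 8114) and then Gstm2 (6508 and 6835), which did not overlap. By day 21 Gstm2 (7662 and 7070) and Gstm1 (6536 and 7081) overlapped. The change in order is thus one of Gstm1 gaining on Gsto1 and Gstm2 in the first week.

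The 10 fibroblast markers were plentiful but changed, with sums of 719123 and 712490.0 normalized counts before the medium, then 481581 and 507586 (day 7), 366908 and 322572 (day 14), and 471493 and 539298 (day 21). Col1a1 had 24910.2 and 19925 at day 14, against 242711 and 257184 at day 0, while Dcn had 61030.5 and 44978, against 9649.7 and 8890.5. Markers of macrophages rose in the first week too. The 12 macrophage markers, of which Lyz2 held most, summed to 1193 and 1269.5 normalized counts before the medium, then 12305 and 9981 (day 7), 21073 and 39492 (day 14), and 20831 and 20959 (day 21). All 12 were called higher at day 7 against day 0, and at day 21 against day 14 0 were higher and 1 lower. The day 14 libraries lay far apart in this sum. The 7 adipocyte markers, of which Fabp4 held most, summed to 78.8 and 114 before the medium, then 2048 and 2068 (day 7), 5764 and 7050 (day 14), and 2391 and 2208 (day 21), and 1 of the 3 tested was called higher at day 7. Of 8 cardiomyocyte markers Myh6 was at 0 in every library and Tnnt2 held nearly the whole sum, which was 22455 and 28813 at day 14, against 1213 and 1137 at day 0. The 7 mesothelial and epithelial markers summed to 1275 and 1166 before the medium, then 833 and 834 (day 7), 1584 and 1662 (day 14), and 945 and 419 (day 21). The 8 endothelial markers summed to 573 and 574 at day 7, against 643 and 686 at day 0, and 2 of the 7 tested were called lower. The 6 hepatocyte markers summed to at most 7.01 in any library, with albumin (Alb) at 0 throughout. The part of other cell types in the results on the families was not tested.

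Most glutathione transferases were higher after the first week. At day 7 against day 0, 12 of the 17 Gst members were called higher (70.6%, against 27.5% of all tested genes). Of the others 1 was called lower (5.88%, against 27.9%) and 4 neither. The family's median log2 difference was 0.67. Gsta3, an alpha-class enzyme known in mice for conjugating the activated form of aflatoxin, had normalized counts of 83.6 and 146 before the medium, then 2465 and 2649 (day 7), 6135 and 6816 (day 14), and 4849 and 4412 (day 21). Both libraries of each later time lay far above both at day 0, and the difference at day 7 was 22.9-fold (log2 4.52 ± 0.19, adjusted p = 1.85e-09). Gstm1, a mu-class enzyme and the Gst with the most reads after day 0, had 1914 and 1973 before the medium, then 10455 and 10458 (day 7), 10203 and 12202 (day 14), and 8425 and 9128 (day 21) (day 7 against day 0: log2 2.43 ± 0.10, adjusted p = 2.10e-09). Gstm1 held 33.6 and 32.8% of the Gst counts at day 7, against 13.5 and 12.9% at day 0.

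Members of other classes and further mu-class genes rose too. Gstk1, the kappa-class enzyme of mitochondria and peroxisomes, had 247 and 262 at day 7, against 75.6 and 85.0 at day 0 (log2 1.65 ± 0.13, adjusted p = 4.06e-07). Gstt1, a theta-class enzyme that acts on small halogenated compounds, had 588 and 559 at day 7, against 213 and 268 at day 0 (log2 1.26 ± 0.13, adjusted p = 6.59e-06). Among the mu class Gstm3 had 291 and 279.9, against 50.2 and 45.8 (log2 2.55 ± 0.17, adjusted p = 1.26e-07). Gstm2 had 6925 and 7272, against 3429.9 and 3599 (log2 1.01 ± 0.10, adjusted p = 2.58e-06). Gstm5, whose promoter is printed above, had 2194 and 2074 at day 7, against 851 and 986 at day 0 (log2 1.22 ± 0.12, adjusted p = 3.45e-06). In each of these genes the day 7 libraries lay above the day 0 libraries with no overlap.

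Gsta4, the alpha-class enzyme that conjugates the lipid peroxidation product hydroxynonenal, was the 1 Gst member called lower after a week (2 were without any 1 of the day 14 or day 21 libraries). It had 25.5 and 27.6 at day 7, against 51.0 and 60.1 at day 0 (log2 -1.03 ± 0.22, adjusted p = 0.00152), and stood at 47.4 and 47.9 at day 14 and 50.2 and 55.4 at day 21. Gsto1, an omega-class enzyme that reduces rather than conjugates its substrates, was among the most plentiful Gst members per kilobase at day 0, with Gstm2, and was called lower over the whole course, with 2592 and 1644 at day 21, against 3774 and 4228 at day 0 (log2 -0.95 ± 0.17, adjusted p = 0.000425). The second day 21 library was the lower of the pair, and both lay below both day 0 libraries. Over the whole course 11 of the 17 Gst members were higher (64.7%, against 29.8% of all tested genes) and 1 lower (5.88%, against 29.5%). The median was 0.64, and Gsta3 led with 41.4-fold (log2 5.37 ± 0.19, adjusted p = 3.02e-10).

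**Figure D2:**
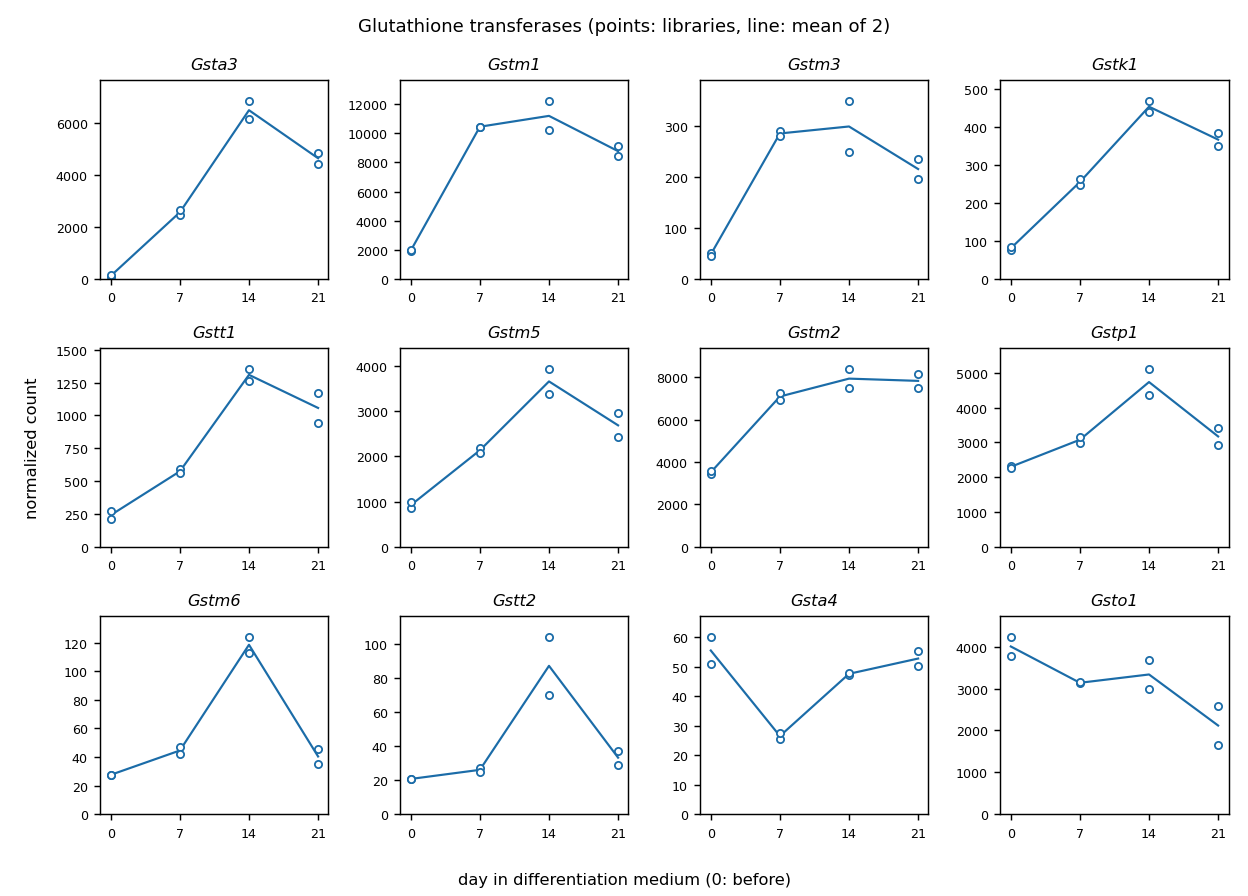
Normalized counts of 12 Gst members by day in differentiation medium, with day 0 taken before it. Points are libraries and lines join the means of the 2 libraries of a time. Most genes peak at day 14, Gsta3 there at 6135 and 6816, while Gsta4 is lowest at day 7 and Gsto1 at day 21.

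Between day 7 and day 14 the family rose again and then fell back, and this second pattern moved with transcript length. At day 14 against day 7, 11 of 17 Gst members were higher (64.7%, against 25.0% of all tested genes) and 0 lower (against 27.0%). The median log2 difference was 0.62. The 11 were also the only Gst members with an unadjusted limma p below 0.05, and edgeR and DESeq2 called 0 lower too. At day 21 against day 14, 0 were higher (against 20.2% of all tested genes) and 8 lower (47.1%, against 14.3%; median -0.45). At an unadjusted limma p below 0.05 there were 12, each of them lower, and edgeR and DESeq2 called 0 higher and 11 and 9 lower. In all, 14 of the 17 had their highest mean at day 14. The Gst members are short, with a median longest transcript of 1289 bases, against 3360 for all tested genes. Across all tested genes log2 differences changed by -0.37 per doubling of transcript length at day 14 against day 7 and by 0.24 at day 21 against day 14, against -0.01 at day 7 against day 0 and -0.14 at day 21 against day 0. The 1627 tested genes with transcripts of at most 1500 bases had medians of 0.66 at day 14 against day 7 and -0.40 at day 21 against day 14, and the 13 Gst members of that length had 0.62 and -0.45. The 2 libraries of day 14 also differed from each other by -0.15 per doubling of length, second minus first.

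With a trend in length and GC content removed from each library, the Gst family had 4 members higher and 5 lower at day 14 against day 7 (18.8 and 23.1% of all tested genes) with a median of 0.07, and 2 higher and 2 lower at day 21 against day 14 (15.4 and 11.7%). In the first week 11 were higher and 3 lower, the 3 being Gsta4, Gsto1 and Gstm4 (26.8 and 34.2% of all tested genes), with a median of 0.58, and over the whole course 9 were higher and 2 lower (27.6 and 37.3%). The 4 that were still called higher at day 14 were Gstt2 (log2 1.40), Gsta3 (1.01), Gstm6 (0.80) and Gstt1 (0.63). Without the trend removed these were also the 4 largest, with Gstt2 at 70.2 and 104, against 27.3 and 25.0 at day 7 (log2 1.67 ± 0.26, adjusted p = 0.000328), and Gstm6 at 113 and 124, against 47.4 and 41.9 (log2 1.39 ± 0.22, adjusted p = 0.00032). Both fell in the third week, Gstt2 to 37.4 and 29.2 at day 21 (log2 -1.34 ± 0.26, adjusted p = 0.00327) and Gstm6 to 45.9 and 35.0 (log2 -1.54 ± 0.22, adjusted p = 0.000615), and both were also called lower with the trend removed (log2 -1.20 and -1.21). The count of 8 members lower at day 21 against day 14 came to 4 without the second day 14 library and to 4 without the second day 21 library. Whether length itself sets the later course of the other members was not tested.

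**Figure D3:**
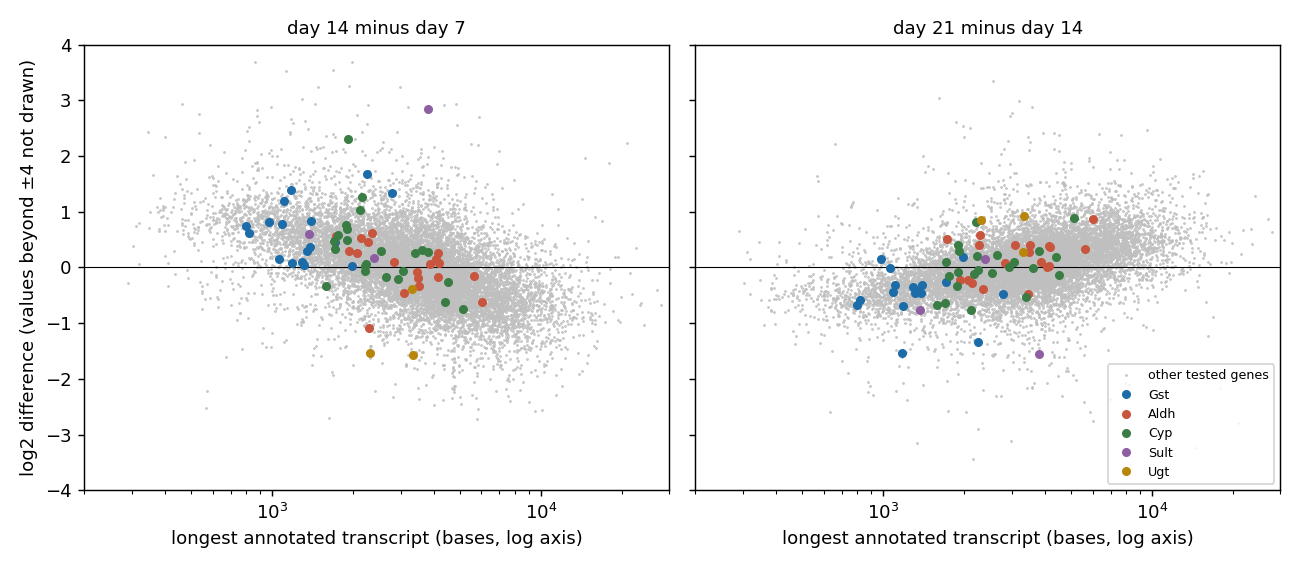
Log2 difference at day 14 minus day 7 (left) and at day 21 minus day 14 (right) against the longest annotated transcript in bases on a log axis, with grey points for other tested genes and coloured points for members by family. Gst members (blue) sit at short lengths, mostly above 0 on the left and below 0 on the right, amid grey points of the same lengths, and 2 of the 3 Ugt members (gold) sit at about -1.5 on the left.

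Reads of some Gst genes cannot be placed with certainty. Among stretches of 50 bases in the longest transcript, 62.3% of Gstp1 also occur in another gene, chiefly Gstp2, and 72.6% of Gstp2, 28.8% of Gstm3 and 23.1% of Gstm1 do. Gstp1 and Gstp2, pi-class genes, are therefore described together, though each counts as 1 member. Gstp1 had 2327 and 2263 before the medium, then 2984 and 3163 (day 7), 4360.5 and 5103 (day 14), and 3405 and 2931 (day 21). Gstp2 had 526 and 577 before the medium, then 645 and 785 (day 7), 1068 and 1336 (day 14), and 831 and 667 (day 21). Gstm5 shares exon positions with 4933431E20Rik on the opposite strand, and the strand of the counts is not given in the sources used here. Such opposite-strand overlap holds for 13 members in all. The others are Aldh16a1, Aldh1l1, Aldh1l2, Aldh2, Aldh5a1, Aldh6a1, Aldh7a1, Cyp2u1, Sult1a1 and the 3 Ugt members.

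The other Gst members lay at middle or low levels. Gstm7, of the mu class, had 150.5 and 149 before the medium, then 309.7 and 357 (day 7), 379.9 and 489.7 (day 14), and 304 and 326 (day 21), above day 0 in each later library and called higher at day 7 whichever library was left out. Gstm4, of the same class, had 379 and 437 before the medium, then 338 and 333 (day 7), 439 and 480.4 (day 14), and 412 and 358 (day 21), with both day 7 libraries below all others. Its call at day 14 against day 7 was lost without the second day 7 library (adjusted p = 0.0595). Gstt3, a theta-class gene, had 329.6 and 348 before the medium, then 399.9 and 435 (day 7), 422 and 432 (day 14), and 492 and 484 (day 21), lowest at day 0 and highest at day 21. Gsto2, the omega-class relative of Gsto1, had 15.1 and 31.4 before the medium, then 31.0 and 25.9 (day 7), 31.0 and 39.7 (day 14), and 36.3 and 18.5 (day 21), with the times overlapping, and was called in no comparison.

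Aldh1a1, the most abundant aldehyde dehydrogenase, rose, while Aldh18a1 and Aldh1l2 fell. At day 7 against day 0, 9 of the 19 Aldh members were higher (47.4%, against 27.5% of all tested genes) and 5 lower (26.3%, near the 27.9% of all tested genes), with a median of 0.27. This cytosolic enzyme, which turns retinaldehyde into retinoic acid, had normalized counts of 10958 and 10252 before the medium, then 62117 and 59374 (day 7), 93522 and 91924 (day 14), and 73205 and 68174 (day 21). Each later time lay above day 0 in both libraries, 5.73-fold at day 7 (log2 2.52 ± 0.12, adjusted p = 3.90e-09), and day 14 lay above day 7 (log2 0.61 ± 0.12, adjusted p = 0.00103). Aldh1a1 alone held 36.4 and 34.0% of all Aldh counts before the medium, then 69.3 and 67.6% (day 7), 76.1 and 76.2% (day 14), and 70.1 and 68.2% (day 21). Aldh1a7, its close relative in mice, had 3027 and 2889 at day 7, against 691 and 681 at day 0 (log2 2.11 ± 0.09, adjusted p = 3.21e-09).

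Enzymes for other aldehydes rose as well. Aldh2, the mitochondrial enzyme that clears acetaldehyde, had 14502 and 15076 at day 7, against 6149.7 and 6005 at day 0 (log2 1.28 ± 0.09, adjusted p = 2.64e-07), and 15893 and 17115 at day 21. Aldh3a1, known as a stress-responsive enzyme of the cornea, had 12.7 and 22.2 before the medium, then 74.7 and 74.0 (day 7), 108 and 113 (day 14), and 125 and 198 (day 21), and by day 21 stood 8.87-fold above day 0 (log2 3.15 ± 0.27, adjusted p = 7.59e-07). Aldh6a1, which acts in valine breakdown, had 1263 and 1158 at day 7, against 308 and 341 at day 0 (log2 1.90 ± 0.15, adjusted p = 3.61e-07). Aldh3b1, which acts on lipid aldehydes, had 620.3 and 640.1, against 236 and 243 (log2 1.39 ± 0.10, adjusted p = 3.08e-07). None of these groups overlapped.

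The members that fell differed in role. Aldh18a1, which makes the precursor of proline, had 3379 and 3759 before the medium, then 826 and 803 (day 7), 663 and 623 (day 14), and 835 and 862 (day 21), lower in both libraries of each later time than at day 0 (day 7 against day 0: log2 -2.13 ± 0.10, adjusted p = 3.21e-09). The 2 enzymes that oxidise formyl-tetrahydrofolate went opposite ways: Aldh1l2, the mitochondrial one, had 606 and 571 at day 7, against 1824 and 1894 at day 0 (log2 -1.66 ± 0.10, adjusted p = 6.18e-08). Aldh1l1, the cytosolic one, had 1732 and 1999, against 914 and 860.3 (log2 1.07 ± 0.10, adjusted p = 1.97e-06). Aldh1a2, the main retinoic acid enzyme of the embryo and of mesothelium, had 288 and 353 at day 7, against 892 and 1102 at day 0 (log2 -1.63 ± 0.13, adjusted p = 5.62e-07), and was still lower at day 21 with 600.3 and 566 (day 21 against day 0: log2 -0.77 ± 0.13, adjusted p = 0.000297). Of the 4 tested mesothelial and epithelial markers 3 were called lower and 1 higher at day 7 against day 0. The lower ones included Lrrn4 (29.1 and 59.7 at day 7, against 293 and 297 at day 0) and Upk3b (399.9 and 371, against 887 and 777). The higher one was Msln (404 and 400 at day 7, against 19.1 and 19.6 at day 0), so the markers did not move together. The part of such cells in the Aldh1a2 result was not tested. The third retinaldehyde enzyme, Aldh1a3, had 70.5 and 50.6 at day 21, against 101 and 96.7 at day 0 (log2 -0.72 ± 0.20, adjusted p = 0.00738), and leaving out the second day 21 library ended its call (log2 -0.48, adjusted p = 0.0718). Aldh4a1 and Aldh5a1, which break down proline and GABA, had log2 differences of -0.45 each at day 7, but both calls were lost without the second day 0 library, and that of Aldh5a1 also without the first day 0 or the second day 7 library (largest adjusted p 0.0510 for Aldh4a1 and 0.141 for Aldh5a1). Without the second day 0 library 3 of the 19 Aldh members were lower.

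In the second week the Aldh counts were near those of all genes. At day 14 against day 7, 5 of 19 were higher (26.3%, against 25.0% of all tested genes) and 4 lower (21.1%, against 27.0%), and the 5 came to 1 without the first day 7 library, 2 without either day 0 library, and 3 without the second day 7 or either day 14 library. Aldh1a1 was the only Aldh member called higher in this comparison whichever of the 8 libraries was left out. Aldh1b1, a mitochondrial enzyme, had 31.0 and 33.9 at day 14, against 82.0 and 59.7 at day 7 (log2 -1.09 ± 0.25, adjusted p = 0.00302). In the third week 6 were higher (31.6%, against 20.2% of all tested genes) and 1 lower (5.26%, against 14.3%), led by Aldh1l2 with 704 and 689 at day 21, against 410.0 and 355 at day 14 (log2 0.87 ± 0.10, adjusted p = 0.000232). The 1 lower was Aldh1a1 (log2 -0.39 ± 0.12, adjusted p = 0.0215), whose call was lost without either day 7 library or the second day 21 library (log2 -0.34 to -0.44 over the libraries left out, adjusted p up to 0.0889), while 2 members were lower without the first day 14 or the first day 21 library. From start to end of the course, 10 Aldh members were higher (52.6%, against 29.8% of all tested genes) and 4 lower (21.1%, against 29.5%).

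The remaining Aldh members were lower in level or changed less. Aldh3a2, which oxidises long-chain fatty aldehydes, had 1269.9 and 1408 before the medium, then 1627 and 1666 (day 7), 1247 and 1162 (day 14), and 1586 and 1603 (day 21), with both day 14 libraries below all others. It fell at day 14 against day 7 (log2 -0.45 ± 0.09, adjusted p = 0.00177) and rose at day 21 against day 14 (log2 0.41 ± 0.09, adjusted p = 0.00671). Aldh7a1, an enzyme of lysine breakdown, had 1482 and 1524 before the medium, then 1222 and 1445 (day 7), 1593 and 1608 (day 14), and 1689 and 1569 (day 21). Aldh9a1, known for a step of carnitine synthesis, had 512 and 552 before the medium, then 586 and 566 (day 7), 625 and 612 (day 14), and 705 and 607 (day 21). Aldh16a1 had 388 and 417 before the medium, then 332 and 408 (day 7), 384 and 436 (day 14), and 414 and 412 (day 21) and was called in no comparison. Aldh3b2, at the low end of the family, had 11.1 and 10.5 before the medium, then 20.0 and 25.9 (day 7), 31.0 and 36.2 (day 14), and 26.7 and 28.2 (day 21), above day 0 in every later library. Of its 50-base stretches 24.2% occur in other genes, and of those of Aldh4a1 35.5% do, chiefly in Gm21969.

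**Figure D4:**
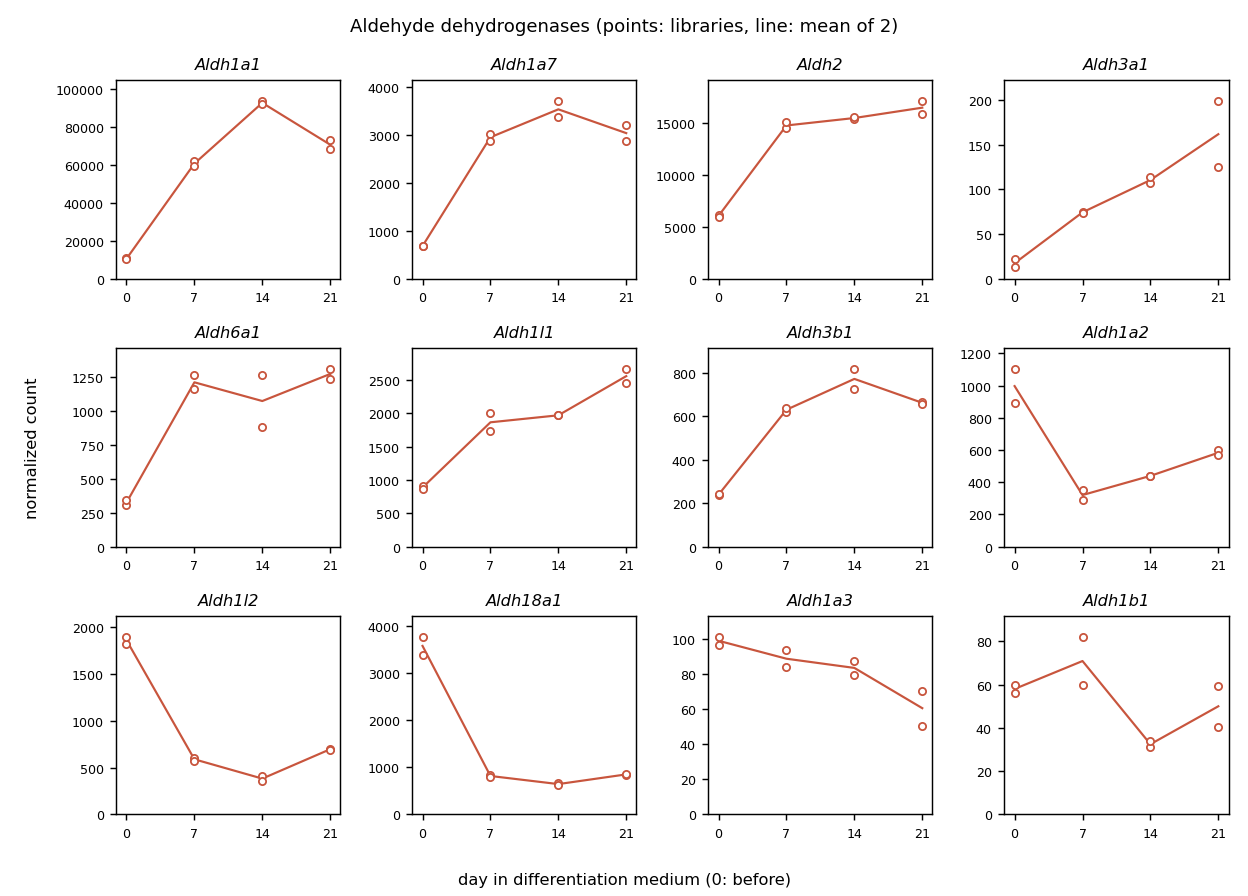
Normalized counts of 12 Aldh members by day in differentiation medium, with day 0 taken before it. Points are libraries and lines join the means of the 2 libraries of a time. Aldh1a1 reaches 93522 and 91924 at day 14, and Aldh1a2, Aldh1l2 and Aldh18a1 lie below their day 0 values at every later time.

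Cyp26b1, Cyp27a1 and Cyp7b1 had the largest differences among P450s after the first week. At day 7 against day 0, 16 of the 23 Cyp members were higher (69.6%, against 27.5% of all tested genes) and 1 lower (4.35%, against 27.9%). The median was 1.36, and 7 of the 16 were members that lay below 10 at day 0 and could be members only through later times. Both the share and the median include these 7. The calls of Cyp2b10, Cyp46a1, Cyp4b1, Cyp2d9, Cyp4f17 and Cyp39a1 were each lost without at least 1 of the libraries. Cyp26b1, which breaks down retinoic acid, had normalized counts of 118 and 135 before the medium, then 1328 and 1289 (day 7), 1148 and 1044 (day 14), and 1095 and 914 (day 21). It was 10.3-fold higher at day 7 than at day 0 (log2 3.37 ± 0.12, adjusted p = 4.67e-10), and every later library lay above both day 0 libraries. Cyp27a1, the mitochondrial sterol hydroxylase, had 45.4 and 51.0 before the medium, then 459 and 463 (day 7), 789.9 and 704 (day 14), and 603 and 813 (day 21) (day 7 against day 0: log2 3.23 ± 0.15, adjusted p = 3.67e-09). Cyp7b1, a hydroxylase of oxysterols, had 79.6 and 74.5 before the medium, then 365 and 389 (day 7), 973 and 841 (day 14), and 791 and 876 (day 21) (day 7 against day 0: log2 2.28 ± 0.12, adjusted p = 1.33e-08). It rose again at day 14 against day 7 (log2 1.26 ± 0.12, adjusted p = 2.51e-05), also with the joint length and GC trend removed (log2 0.81).

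Among P450s known for drugs and fatty acids, Cyp2d22 had 1104 and 1128 at day 7, against 255 and 249.7 at day 0 (log2 2.14 ± 0.11, adjusted p = 1.24e-08), and fell in the third week to 838 and 1034 at day 21, against 1381 and 1298 at day 14 (log2 -0.52 ± 0.11, adjusted p = 0.00476). Cyp4v3, an omega-hydroxylase of fatty acids, had 236 and 278 before the medium, then 666 and 696 (day 7), 900.2 and 761 (day 14), and 1014 and 1020.3 (day 21), with the 2 libraries of each time above both of the time before. Cyp4f16 was the 1 Cyp member called lower after a week (2 were without either day 14 library), with 302 and 276 at day 7, against 446 and 449.8 at day 0 (log2 -0.63 ± 0.12, adjusted p = 0.000576), and 26.5% of its 50-base stretches occur in other genes, chiefly Cyp4f37. Cyp2b10, a target of the receptor CAR in liver, had 32 reads over the 2 libraries of day 21, where its normalized counts were 13.9 and 18.5, and no read at day 0.

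Further Cyp members were spread over several levels. Cyp4f13, of the fatty acid hydroxylases, had 48.6 and 60.1 before the medium, then 142 and 139 (day 7), 203 and 217 (day 14), and 189 and 189 (day 21). Cyp2j9, of a subfamily that acts on arachidonic acid, had 48.6 and 51.0 before the medium, then 119 and 120.4 (day 7), 169 and 127 (day 14), and 152 and 124 (day 21). Both lay above day 0 in every later library. Cyp2j6, of the same subfamily, had 518 and 501 before the medium, then 624 and 587 (day 7), 779 and 733 (day 14), and 802 and 703 (day 21). Cyp39a1, a hydroxylase of oxysterols, had 353 and 329 before the medium, then 477 and 434 (day 7), 437 and 437 (day 14), and 452 and 487 (day 21), likewise above day 0 in each later library but by less. Cyp2u1, a fatty acid hydroxylase, had 165 and 170.0 before the medium, then 158 and 148 (day 7), 109 and 88.8 (day 14), and 108 and 118 (day 21), with days 14 and 21 below days 0 and 7. Cyp2r1, which makes the circulating form of vitamin D, had 30.3 and 35.3 before the medium, then 28.2 and 34.8 (day 7), 59.2 and 49.1 (day 14), and 49.1 and 37.0 (day 21). Its days 0 and 7 overlapped, as did days 14 and 21, and its mean was highest at day 14. Cyp20a1, a P450 with no settled substrate, had 838 and 849.8 before the medium, then 662 and 649 (day 7), 761 and 522 (day 14), and 775 and 681 (day 21) and was called in no comparison. Neither was Cyp4f37, with 54.9 and 73.2 before the medium, then 45.5 and 50.8 (day 7), 38.3 and 47.9 (day 14), and 45.9 and 55.4 (day 21). Cyp4f17 had 144 and 150.4 before the medium, then 198 and 217 (day 7), 190.4 and 169 (day 14), and 161 and 200.4 (day 21), above day 0 in each later library. Among the members below 10 before the medium, Cyp4f14 had 6.37 and 6.54 before the medium, then 22.8 and 33.0 (day 7), 39.2 and 19.9 (day 14), and 43.8 and 57.4 (day 21). Cyp4b1 had 0.796 and 3.92 before the medium, then 11.8 and 7.13 (day 7), 10.9 and 16.4 (day 14), and 16.0 and 20.4 (day 21), and both were highest at day 21. Cyp46a1, the cholesterol hydroxylase known from brain, reached at most 18.7, at day 14, against 2.39 and 2.61 before the medium. The 3 low members of the Cyp2d subfamily, Cyp2d9, Cyp2d11 and Cyp2d26, reached at most 30.1 in any library (Cyp2d11 at day 7), and 29.0, 37.2 and 10.5% of their 50-base stretches occur in other genes.

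Cyp1b1, an enzyme of steroids and polycyclic hydrocarbons that works mainly outside the liver, was by far the most abundant P450. It was called lower at day 14 and higher at day 21, each against the time before, as were Aldh3a2, Aldh1l2, Aldh18a1 and Ugt1a6a. It had 9435 and 9223 before the medium, then 10181 and 10553 (day 7), 7282 and 5186 (day 14), and 11381 and 11410.4 (day 21), with both day 14 libraries below all others and the day 14 pair far apart. At day 7 against day 0 it was not called (log2 0.15 ± 0.13, adjusted p = 0.355), at day 14 against day 7 it was lower (log2 -0.75 ± 0.13, adjusted p = 0.000656) and at day 21 against day 14 higher (log2 0.89 ± 0.13, adjusted p = 0.000799). Its transcript is long at 5128 bases, and with the joint length and GC trend removed the last 2 differences were -0.47 and 0.67 and were both still called. Cyp1b1 held 73.5 and 72.6% of the Cyp counts before the medium, then 60.0 and 61.1% (day 7), 46.5 and 41.0% (day 14), and 60.4 and 59.7% (day 21). At day 14 against day 7 the Cyp family had 6 higher (26.1%, near 25.0% of all tested genes) and 2 lower (8.70%, against 27.0%). Fewer were higher without the first day 14 library, and fewer lower without the first day 7 library. In the third week the family had 1 higher and 1 lower (4.35% each, against 20.2 and 14.3% of all tested genes). More were higher without the first day 14 library. Over the whole course 15 Cyp members were higher (65.2%, against 29.8% of all tested genes) and 2 lower (8.70%, against 29.5%). Fewer were lower without the second day 0 library. The 15 include Cyp2b10, Cyp4f14, Cyp4b1, Cyp2d9, Cyp2d26 and Cyp46a1, which lay below 10 at day 0 and could be members only through later times. Those above 10 at day 0 were led by Cyp27a1 (log2 3.84 ± 0.15, adjusted p = 5.92e-10), Cyp7b1 (log2 3.42 ± 0.12, adjusted p = 3.02e-10) and Cyp26b1 (log2 2.98 ± 0.12, adjusted p = 7.31e-10).

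**Figure D5:**
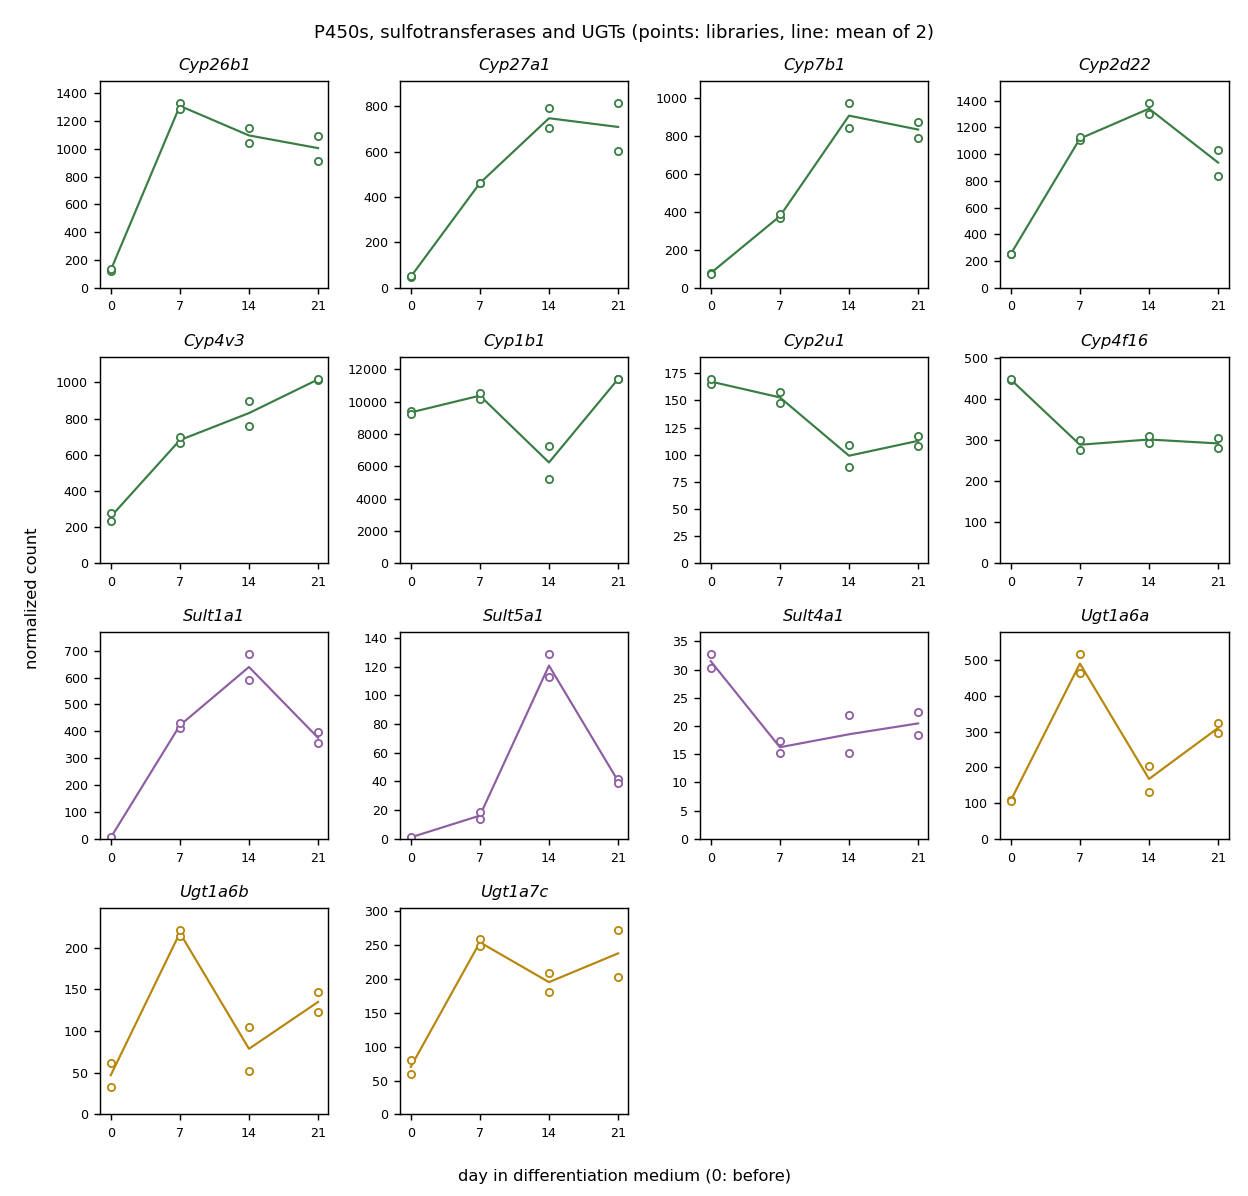
Normalized counts of 8 Cyp (green), 3 Sult (purple) and 3 Ugt (gold) members by day in differentiation medium, with day 0 taken before it. Points are libraries and lines join the means of the 2 libraries of a time. Cyp26b1, Cyp27a1 and Cyp7b1 stay high after day 7, Cyp1b1 dips to 7282 and 5186 at day 14, and Ugt1a6a peaks at day 7 with 465 and 516.

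Of the 3 sulfotransferase members, Sult1a1 and Sult5a1 had their highest mean at day 14 and Sult4a1 had its highest at day 0. Sult1a1, which sulfates phenols and is the broadest of the family, had 3.18 and 6.54 before the medium, then 414 and 431 (day 7), 592 and 686 (day 14), and 356 and 396 (day 21). It lay below 10 at day 0, with 9 reads over the 2 libraries, and could be a member only through later times. Its fold is thus only a description that rests on those few reads: 75.3-fold at day 7 against day 0 (log2 6.23) and 67.0-fold at day 21 (log2 6.07). The calls for Sult1a1 at day 14 against day 7 (log2 0.59 ± 0.23, adjusted p = 0.043) and at day 21 against day 14 (log2 -0.76 ± 0.23, adjusted p = 0.0215) were each lost without the second day 14 library or either day 21 library. The first was also lost without either day 7 library. Adjusted p then reached up to 0.171 and 0.109, and the day 14 difference was 0.01 with the joint length and GC trend removed. Exons of Sult1a1 overlap those of Sgf29 on the genome, on the opposite strand. Sult5a1 had 0.796 and 1.31 before the medium, then 13.7 and 18.7 (day 7), 113 and 129 (day 14), and 41.7 and 38.9 (day 21): 36 reads at day 7, against 2 at day 0, gave a ratio of 16.4 (95% counting interval 4.22 to 141), and 79 reads at day 21, against 2 at day 0, a ratio of 40.6 (10.9 to 341). Such intervals cover counting error only, and the ratios to day 0 are only a description. Sult5a1 too lay below 10 at day 0 and could be a member only through later times. It peaked at day 14 (day 14 against day 7: log2 2.84 ± 0.31, adjusted p = 4.21e-05) and fell by day 21 (day 21 against day 14: log2 -1.56 ± 0.31, adjusted p = 0.0035). Sult4a1, the brain member of the family, had 17.3 and 15.2 at day 7, against 30.3 and 32.7 at day 0 (log2 -0.92 ± 0.30, adjusted p = 0.022), a call that was lost when any 1 of these 4 libraries was left out (adjusted p up to 0.112).

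The 3 Ugt members had their highest mean at day 7, while 14 of the 17 Gst members had theirs at day 14. Ugt1a6a had 108 and 107 before the medium, then 465 and 516 (day 7), 203 and 132 (day 14), and 297 and 324 (day 21). Day 7 lay above every other time, 4.51-fold above day 0 (log2 2.17 ± 0.18, adjusted p = 6.71e-07), with a fall at day 14 against day 7 (log2 -1.57 ± 0.18, adjusted p = 4.94e-05) and a rise at day 21 against day 14 (log2 0.92 ± 0.18, adjusted p = 0.00306). With the joint length and GC trend removed the fall and the rise were -1.69 and 0.96. Ugt1a6b had 32.6 and 61.4 before the medium, then 214 and 221 (day 7), 105 and 52.6 (day 14), and 123 and 147 (day 21) and fell likewise at day 14 against day 7 (log2 -1.54 ± 0.32, adjusted p = 0.00167). With 1 library left out 2 Ugt members were higher at day 21 against day 14 without either day 0 library or the first day 14 library. Ugt1a7c had 80.4 and 60.1 before the medium, then 259.6 and 249 (day 7), 209.6 and 181 (day 14), and 272 and 203 (day 21) (day 7 against day 0: log2 1.85 ± 0.18, adjusted p = 3.43e-06) with days 7 and 21 overlapping, and was not called at day 14 against day 7 (adjusted p = 0.0992). All 3 were higher at day 21 than at day 0. The Ugt1a genes are one locus in which alternative first exons join the same later exons. Other genes hold 80.7% of the 50-base stretches of Ugt1a6b, 69.3% of those of Ugt1a7c and 38.9% of those of Ugt1a6a, and the 3 are not independent of each other. Of the other Ugt rows none had more than 2 reads in all.

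Genes that serve these families were read from 10 lists of the pathway, at day 7 against day 0, where 27.5% of all tested genes were higher and 27.9% lower. Among 12 tested genes of glutathione supply and recycling 5 were higher and 3 lower (median 0.14). Dpep1, a dipeptidase that cleaves glutathione conjugates, had 21340.0 and 20903 at day 7, against 1088 and 1216 at day 0 (log2 4.20 ± 0.10, adjusted p = 8.81e-11). Ggt5, a gamma-glutamyl transferase, had 605 and 664, against 52.5 and 62.8 (log2 3.44 ± 0.12, adjusted p = 4.67e-10). Chac1, which degrades glutathione within the cell, fell (log2 -1.84 ± 0.16, adjusted p = 8.75e-07). Of 23 electrophile response genes, many of them Nrf2 targets, 9 were higher (39.1%) and 7 lower (30.4%), with a median of 0.06. Fth1, the heavy chain of the iron store ferritin, had the largest change, with 186028 and 197605 at day 7, against 26018 and 30687 at day 0 (log2 2.76 ± 0.17, adjusted p = 5.07e-08). Gclc, the catalytic subunit of the enzyme that starts glutathione synthesis, rose (log2 1.70 ± 0.11, adjusted p = 6.26e-08), while the cystine transporter Slc7a11 fell (log2 -1.67 ± 0.10, adjusted p = 6.29e-08). Nqo1, a standard Nrf2 target named here after its values were seen, had 453 and 381 at day 7, against 277 and 267 at day 0 (log2 0.61 ± 0.19, adjusted p = 0.0147), and its call was lost without either day 0 library or the first day 7 library (adjusted p up to 0.121).

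In the same comparison, of 14 xenobiotic sensors and partners 6 were higher and 2 lower, the 2 being Ahr (129 and 143 at day 7, against 382 and 412 at day 0, log2 -1.54 ± 0.15, adjusted p = 2.52e-06) and its partner family member Arnt2 (log2 -1.56 ± 0.15, adjusted p = 3.09e-06). Tiparp, an Ahr target, was higher (log2 0.93 ± 0.15, adjusted p = 0.000181). Genes of P450 electron supply and haem synthesis had 3 higher (18.8%) and 4 lower (25%) of 16, and genes that supply sulfate and glucuronic acid 1 higher and 6 lower of 12, among them Papss2, which makes the sulfate donor (log2 -0.88 ± 0.10, adjusted p = 1.37e-05). Of 10 conjugate exporters 4 were higher and 1 lower. Other glutathione transferases and membrane-bound relatives had 5 higher and 3 lower of 12, with Hpgds (log2 2.57 ± 0.41, adjusted p = 0.000185), Mgst3 (log2 1.82 ± 0.19, adjusted p = 6.38e-06) and Mgst1 (log2 1.66 ± 0.13, adjusted p = 3.48e-07) leading. Of 36 other phase I enzymes 26 were higher and 4 lower (median 1.18), the higher ones including the flavin monooxygenases Fmo2 (log2 6.99 ± 0.25) and Fmo1 (5.44 ± 0.16).

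Beside the retinoid members, 16 tested genes of the retinoid pathway had 5 higher and 8 lower at day 7 against day 0 (median -0.39). Rarb, a receptor gene that retinoic acid induces, named after its values were seen, had 43.7 and 39.2 at day 7, against 209 and 183 at day 0 (log2 -2.21 ± 0.22, adjusted p = 4.05e-06), and 24.6 and 34.0 at day 21. Crabp1, a retinoic acid carrier, had 2.73 and 4.46 at day 7, against 49.4 and 32.7 at day 0 (log2 -3.19 ± 0.74, adjusted p = 0.003). Crabp2, its relative, had 1.82 and 0.892 at day 7, against 27.1 and 32.7 at day 0. Rarres1, a gene first described as responding to retinoids, was higher, with 74.7 and 73.1 at day 7, against 11.1 and 18.3 at day 0 (log2 2.29 ± 0.24, adjusted p = 6.02e-06). Beside Cyp27a1 and Cyp7b1, 21 tested genes for enzymes and receptors of oxysterols and steroids had 11 higher and 2 lower (median 0.43). Hsd11b1, which regenerates active glucocorticoid, had 8503 and 8359 at day 7, against 2514 and 2161 at day 0 (log2 1.85 ± 0.11, adjusted p = 3.41e-08). Hsd11b2 and Hsd17b11 of the same list were also called higher, each with a larger log2 difference than Hsd11b1.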

How the data were processed

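RNA of cardiac fibroblasts was isolated with a column kit and made into standard Illumina libraries, per the labels' protocols. Tools listed in the submitters' processing notes are TopHat2 2.0.11, HTSeq 0.6.1 and DESeq, with the build mm9 and no roles. The sources used here give neither the annotation nor a strand setting. The authors deposited 1 table of signal values, reads per gene divided by a size factor per library. Dividing by the step of each library gave whole reads for 100% of values (within 0.01), so depth is known: 13399313 to 21883498 reads.

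Tests used limma 3.58.1 with a trend (R 4.3.3) on log2(normalized count + 1) over all 8 libraries and 13527 genes with at least 10 in 2 or more libraries, with 4 residual degrees of freedom, and p-values were adjusted by Benjamini-Hochberg over these genes for each comparison. Later times were set against day 0 or the time before. Transcript lengths and GC content came from GENCODE M21 (99.2% of tested genes), which is not on the authors' build, so no position of the files was converted. Promoters came from RefSeq. Statistics are given for up to 5 called members with the largest rise and 5 with the largest fall per family and comparison, and up to 3 called genes with the largest change per pathway list. Those of Cyp1b1, Aldh2, Gstm2, Gstm5 and Aldh1l1 at day 7 against day 0, like Rarb and Nqo1, were added after their values were seen. Members and gene lists were chosen with earlier results of these data known. Alternatives were edgeR 4.0.16 and DESeq2 1.42.0 on the recovered reads, other scalings, pseudocounts and filters, fits on only the times compared, removal of a length and GC trend, and each library left out. The fitting steps were checked on simulated counts.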

Additional observations from a re-analysis of the deposited data

How the results depend on the processing

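With a joint trend in transcript length and GC content removed from each library (neither was removed alone), 15 members were higher and 13 lower at day 14 against day 7 (24 and 8 without this), and 4 were lower at day 21 against day 14 (12 without it). Under the same removal the day 14 difference turned to -0.14 for Aldh1a7, -0.22 for Chac2, -0.0198 for Gstp1 and -0.12 for Gstm7, and the median of all genes at day 21 against day 0 moved to -0.10 against 0.00. At day 21 against day 14, 5 members were higher by limma without a trend and 4 with only the 2 times compared, against 8, and the cause was not tested. Upper-quartile scaling moved the share of that comparison's calls that were higher to 46.7% of all calls, against 58.6%. With each library left out in turn, counts of members ran from 33 to 42 higher and 5 to 10 lower at day 7 against day 0, from 15 to 24 and 6 to 11 at day 14 against day 7, from 6 to 12 and 6 to 14 at day 21 against day 14, and from 37 to 43 and 6 to 8 at day 21 against day 0. Of the members' calls, 35 of 50, 18 of 32, 10 of 20 and 42 of 48 held in these 4 comparisons whichever library was left out. A stricter minimum of 50 normalized counts leaves 54 members to test, and Cyp members higher at day 7 against day 0 then number 9. Replicate numbers did not pair the libraries (correlations of deviations -0.0356 to 0.0737), and with a replicate block 39 members were higher and 9 lower at day 7 against day 0, the other comparisons having the same counts, while 7 of 271 named gene results lost their call. Days 14 and 21 had the noisier replicates, which limits the later comparisons most.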
